A study of Mus musculus with 10 samples.

Results

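The 39 genes described here encode the machinery that makes ribosomes in the nucleolus, together with Myc, a transcription factor that regulates many of them. They were taken by name as a fixed set: Myc, 5 genes of RNA polymerase I transcription, 4 genes of the box C/D and 4 of the box H/ACA small nucleolar ribonucleoproteins, 6 nucleolar proteins of more general function, 9 genes of small-subunit processing and 10 of large-subunit assembly. All 39 were found by symbol among the 57010 genes of the counts table, and all 39 passed the filter on low counts, so no member is missing from any count below. RNA was sequenced from whole mammary tumours of untreated mice that all carried the PyMT oncogene under the mouse mammary tumour virus promoter (MMTV-PyMT), a transgene expressed in mammary epithelium. The 5 knockout tumours were RHBDL4 -/- and the 5 controls were wild type for RHBDL4, and all were taken 5 weeks after tumour onset. RHBDL4, encoded by Rhbdd1, is an intramembrane protease that sits in the endoplasmic reticulum. The comparison asks how tumours without RHBDL4 differ from tumours that have it.

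Ribosome production starts when RNA polymerase I transcribes the ribosomal RNA precursor in the nucleolus. Box C/D particles methylate that precursor, box H/ACA particles convert selected uridines to pseudouridine, and a large set of assembly factors cuts it and folds it into the small (40S) and large (60S) subunits. Myc binds DNA with its partner Max, often at the E-box sequence CACGTG, and growing and dividing cells, tumour cells among them, generally express Myc and ribosome assembly genes more strongly than resting cells.

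Library depth ran from 27.4 to 35.0 M (mega) counts in the knockout group and from 25.7 to 43.3 M in the wild-type group. Levels are given as CPM, the reads of a gene per M reads of its library after scaling by TMM, a method that corrects for differences in RNA composition. Wild-type replicate 5 stood apart in markers that are not among the members. Its 10 luminal epithelial markers summed to 117 CPM, against 4138 to 5356 CPM in wild-type replicates 1 to 4, while its skeletal muscle markers summed to about 156400 CPM, against 4.31 to 99.9 CPM. All 10 luminal markers had counts in every library. Counts over gene groups and the fold changes of the named genes are therefore given for all 10 libraries and for the 9 libraries without wild-type replicate 5. Whether fewer cells of a type or less RNA per cell lies behind a level in bulk tissue cannot be told apart. Knockout replicates 3 and 4 share the leading number of their library names, and the first 4 wild-type libraries share theirs in pairs (1 with 2, 3 with 4). Whether tumours with a shared number came from 1 mouse is not stated. If they did, they are not independent, and tests that count each library as a replicate may give p-values that are too small. Without replicate 5 the wild-type group rests on 2 such numbers. The batch number differs in every library and follows the order of the samples, so it does not show which libraries were processed together. Whether processing differed between the genotypes cannot be told.

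Rhbdd1 stood at 22.3, 15.1, 17.3, 13.2 and 16.8 CPM in knockout replicates 1 to 5. The wild-type values were 45.4, 38.6, 33.7, 33.5 and 25.0 CPM, so the groups did not overlap. The difference reached the smallest p that an exact 2-sided permutation test of 5 against 5 libraries can give (p = 0.00794). In edgeR, adjusted over all genes, Rhbdd1 was not called: its log2 fold change was -1.05 on 10 libraries (adjusted p = 0.669) and -1.14 on the 9 (adjusted p = 0.113). Every knockout library still held Rhbdd1 reads. Which stretch was deleted is not stated in the labels.

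When all 10 libraries were used, wild-type replicate 5 widened the spread of most of the 39 genes, but hardly that of Ltv1 or Rrn3. It was the lowest of the 10 libraries for 29 members and lay below the mean of the other wild-type libraries for 35. Relative to that mean its level ran from 20.7% for Myc to 164% for Rrp12, with a median of 57.0% over the members. These levels depend on the scaling, because its TMM factor was 0.588, against 1.01 to 1.1 in the other libraries. As a share of unscaled counts, the 39 genes made up 0.141% of that library and 0.529% to 0.635% of wild-type replicates 1 to 4. In edgeR's quasi-likelihood test over 18577 genes, 0 members had a Benjamini-Hochberg adjusted p under 0.05, and 0% of all genes did. At an unadjusted p under 0.05, 3 members were lower in the knockout (Rrp9, Rrp12 and Wdr12, 7.69% of the members, against 4.44% of all genes) and 0 were higher (2.56% of all genes). The median log2 fold change (knockout over wild type) of the members was -0.11, and that of all genes was -0.06. Of the members, 29 had a negative value (56.2% of all genes had one) and 10 a positive one. The 2 groups overlapped for all 39 members. Among all genes, 1.18% had every knockout library below every wild-type one and 0.807% had every one above. These counts moved with the method. At an unadjusted p under 0.05, limma-voom, which gives a library far from the others less weight, had 13 members lower (9.44% of all genes). Total counts without TMM gave 0 (1.82% of all genes), omitting the low-count filter gave 1 (3.37%) and treating the leading number as a random block gave 0 (0.861%). Summing libraries that share a leading number gave 1 (3.84%) and turned the direction: 17 of the 39 members then had a negative log2 fold change, and the median was 0.0446.

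Without wild-type replicate 5 the ribosome biogenesis genes lay slightly below wild type in the knockout tumours, by small amounts that edgeR did not call for any single gene. Of the 39 members, 33 had a negative log2 fold change, against 46.8% of all 19016 genes tested, and 6 had a positive one. The median was -0.23, against 0.03 over all genes, with a range from -0.42 for Dkc1 to 0.14 for Ubtf. As a share of the mean of wild-type replicates 1 to 4, the knockout mean ran from 73.8% to 109%, with a median of 84.2%. By edgeR 0 members were called (0.0105% of all genes were), and the lowest adjusted p was 0.296. At an unadjusted p under 0.05, 16 members (41.0%) were lower, against 5.85% of all genes, and 0 were higher, against 5.74%. For 8 members every knockout library lay below each of wild-type replicates 1 to 4 (Rrp9, Nop58, Fbl, Noc4l, Nolc1, Ncl, Nop16 and Wdr12), and 3.44% of all genes had that pattern. For 0 members did every knockout library lie above, against 2% of all genes.

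The count of 16 depended on single libraries and on what was taken as the unit. It was 9 without knockout replicate 2 (6.19% of all genes), 10 without wild-type replicate 1 (5.4%) and 9 without wild-type replicate 2 (4.8%). Summing libraries that share a leading number left 4 members lower at an unadjusted p under 0.05 (2.67% of all genes), and treating that number as a random block left 9 (3.64% of all genes). DESeq2 called 4 of the 39 members on the 9 libraries, all lower, where it called 2.46% of all genes: Nop16 (adjusted p = 0.0229), Noc4l (0.0292), Rrp9 (0.0349) and Nolc1 (0.0464). On the same 9 libraries limma-voom called 0 members (lowest limma-voom adjusted p = 0.0938), where it called 142 of all genes. On all 10 libraries both tools called 0 members, where they called 54 (DESeq2) and 17 (limma-voom) of all genes. The lowest adjusted p of a member there was 0.074 in DESeq2 and 0.0962 in limma-voom.

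**Figure D1:**
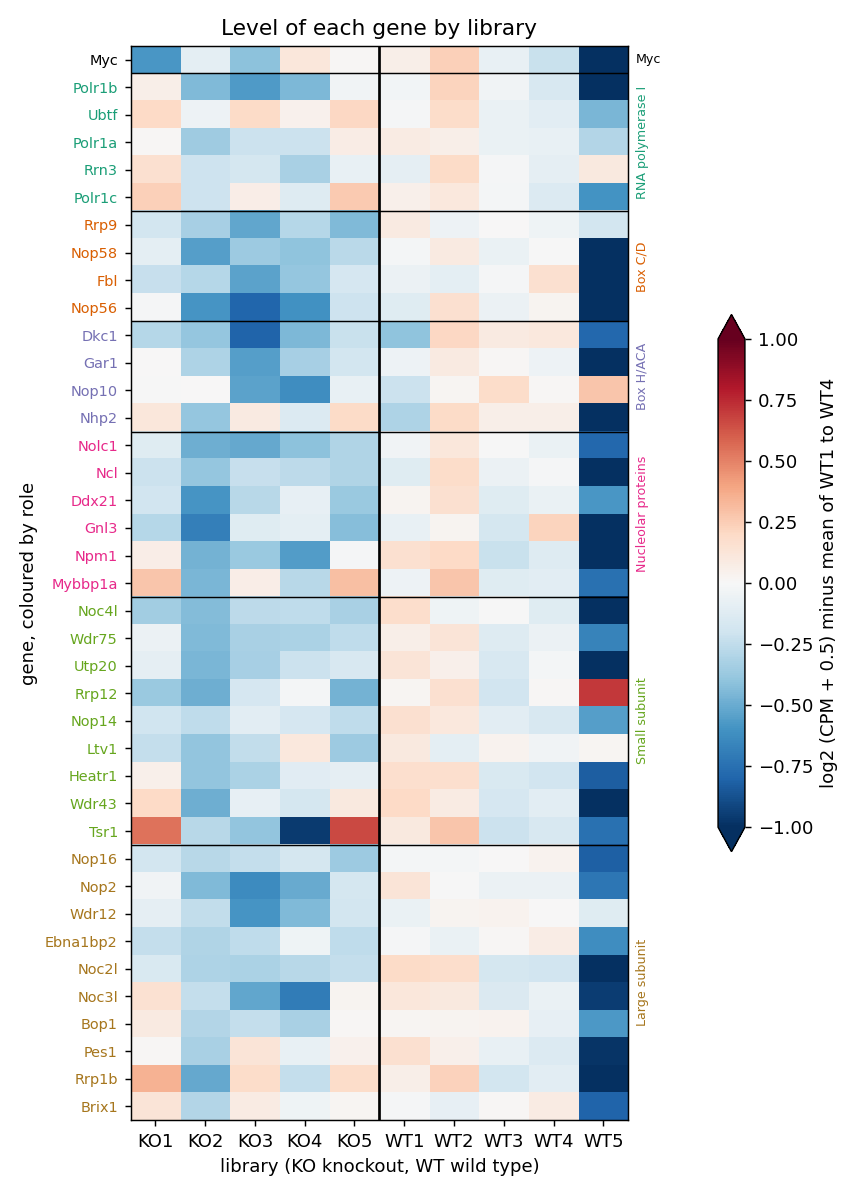
Level of each member as log2(CPM + 0.5) minus the mean of wild-type replicates 1 to 4 (colour, blue below and red above, capped at the ends of the scale), with 1 column per library and 1 row per gene, grouped by role. The median over the 39 rows is -0.04, -0.39, -0.27, -0.26 and -0.17 in knockout replicates 1 to 5 and -0.80 in wild-type replicate 5, the deepest blue column.

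The knockout libraries did not share 1 level. The 39 genes summed to 5086, 3985, 4362, 4225 and 4869 CPM in knockout replicates 1 to 5, and to 5305, 5803, 4908 and 5056 CPM in wild-type replicates 1 to 4. Wild-type replicate 5 gave 2414 CPM. Knockout replicate 1 lay inside the range of wild-type replicates 1 to 4, and the other 4 knockout libraries lay below it. Among the 9 libraries, knockout replicate 2 was the lowest for 19 members and knockout replicate 3 for 10, while wild-type replicate 2 was the highest for 15. The median coefficient of variation of a member was 13.4% in the knockout group and 9.14% in wild-type replicates 1 to 4. Within the knockout group it ran from 4.28% for Nop14 to 46.1% for Tsr1.

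Other gene groups differed between the same libraries. The 14 cell division markers summed to 930.2, 805, 674, 526 and 982 CPM in knockout replicates 1 to 5 and to 1153 to 1498 CPM in wild-type replicates 1 to 4, with no overlap, and to 80.8 CPM in wild-type replicate 5. On the 9 libraries all 14 had a negative log2 fold change, with a median of -0.80. At an unadjusted p under 0.05, 13 were lower, against 5.85% of all genes. On all 10 libraries the 14 values were also negative, with a median of -0.52, but 0 had an unadjusted p under 0.05 and 0 did not overlap. Ccnb2, a mitotic cyclin, was the 1 marker that edgeR called on the 9 libraries (log2 fold change -0.81 ± 0.08, adjusted p = 0.0372). Luminal markers overlapped between the groups (3774 to 7284 CPM in the knockout and 4138 to 5356 CPM in wild-type replicates 1 to 4). Adipocyte markers reached 3137 and 2700 CPM in knockout replicates 2 and 4, against at most 507 CPM in the other 7 libraries of the 9, and skeletal muscle markers reached 1757 CPM in knockout replicate 4, the only one of the 9 libraries in which none of the 12 was at 0 counts. Fibroblast markers summed to 3294 to 6934 CPM in the knockout and to 153 to 5618 CPM in wild-type replicates 1 to 4. The part of these differences in the members' values was not tested.

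Relative to coding length, counts were highest for genes of general nucleolar proteins and of small nucleolar ribonucleoproteins. The length of untranslated parts was left out, so genes with a short coding sequence may rank too high, and this is not a ranking of transcript abundance. Nop10, with 0.192 kb of coding sequence, stood at 36.8 to 64.5 CPM in the 9 libraries. Over the 9 libraries, the mean CPM per kb of coding sequence was highest for Npm1 (1309), followed by Ncl (481), Nop10 (273), Nhp2 (155) and Nop58 (119). Myc stood at 79.6 CPM per kb. The lowest were 3 large scaffold proteins of ribosome assembly, Heatr1 (5.91), Rrp12 (5.26) and Utp20 (4.87).

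The E-box CACGTG reads the same on both strands and was searched in RefSeq promoter windows of 300 bases on the build GRCm38.p6, from 250 bases before to 50 after the annotated start. A window was found for 34 members, and not for Bop1, Fbl, Myc, Npm1 and Rrp12. The motif lay in a window of 8 of those 34 genes (23.5%), in 15 of 67 other ribosome biogenesis genes with a window (22.4%) and in 8.09% of all 27025 genes. In the 250 bases before the start it was found in 2 of the 34 members (5.88%), Nop2 and Rrn3, against 6.86% of all genes. Positions are counted from the start, negative before it. The 2 upstream stretches are shown whole because they hold those matches (capitals), at position -60 in Nop2 (chr6:125131633-125131882, plus strand) and at -215 and -48 in Rrn3 (chr16:13780449-13780698, plus strand).
Nop2: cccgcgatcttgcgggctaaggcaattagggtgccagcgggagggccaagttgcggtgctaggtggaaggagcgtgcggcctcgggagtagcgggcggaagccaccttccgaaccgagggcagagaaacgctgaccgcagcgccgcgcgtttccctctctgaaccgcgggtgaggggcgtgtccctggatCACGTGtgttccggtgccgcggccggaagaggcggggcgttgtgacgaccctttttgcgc
Rrn3: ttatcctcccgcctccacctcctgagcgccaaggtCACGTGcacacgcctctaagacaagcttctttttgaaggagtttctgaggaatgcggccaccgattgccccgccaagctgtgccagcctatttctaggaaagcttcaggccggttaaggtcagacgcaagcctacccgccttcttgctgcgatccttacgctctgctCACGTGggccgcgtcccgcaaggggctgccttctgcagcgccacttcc

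In the other 6 genes the motif lay just after the start, at positions 29 in Ltv1, 41 in Mybbp1a, 3 in Pes1, 25 in Tsr1, 38 in Utp20 and 18 in Wdr43. The bases around each match are shown to compare them, on the strand of the gene and with the motif in capitals.
Ltv1: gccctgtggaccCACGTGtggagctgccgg
Mybbp1a: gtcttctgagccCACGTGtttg
Pes1: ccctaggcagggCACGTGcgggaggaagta
Tsr1: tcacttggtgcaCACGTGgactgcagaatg
Utp20: cggcactaactaCACGTGaggaaaa
Wdr43: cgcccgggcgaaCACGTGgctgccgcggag

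The bases on either side of the motif differ between these genes. The 8 genes with a match had a median log2 fold change of -0.08 on the 9 libraries, from -0.33 for Nop2 to 0.04 for Tsr1. The 26 genes with a window but no match had a median of -0.25. With all 10 libraries the 2 medians were -0.0033 and -0.11. Of the 7 box C/D and H/ACA genes with a window, described below, 0 held the motif. With 8.09% of all genes holding it, 7 genes are too few to show a lack of it.

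Myc stood at 76.6, 108, 86.6, 124 and 116 CPM in knockout replicates 1 to 5. In the wild-type libraries it stood at 120.1, 136, 109, 98.8 and 24.0 CPM. The groups overlapped with and without replicate 5, although knockout replicates 1 and 3 were below each of wild-type replicates 1 to 4. The means were 102 ± 20.1 CPM (SD, n = 5) in the knockout and 97.6 ± 43.4 CPM (SD, n = 5) in the wild type, for which an exact 2-sided permutation test gave p = 0.881. Without replicate 5 the wild-type mean was 116 ± 15.8 CPM (SD, n = 4), and the exact permutation p was 0.302. The log2 fold change changed sign with that library, from 0.07 ± 0.38 (SE) on 10 libraries to -0.16 ± 0.16 on 9, with a 95% interval of -0.52 to 0.19 on the 9. In edgeR the adjusted p was 0.962 and 0.717.

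The genes of RNA polymerase I transcription showed no common direction. On the 9 libraries 3 of the 5 had a negative log2 fold change and 2 a positive one, with a median of -0.10, and 0 had an unadjusted p under 0.05. With all 10 libraries these counts were the same and the median was -0.08. Polr1b encodes the second largest subunit of the enzyme. It stood at 43.3, 30.4, 27.8, 30.3 and 40.4 CPM in the knockout libraries and at 40.6, 48.5, 40.5 and 37.1 CPM in wild-type replicates 1 to 4, with 20.4 CPM in replicate 5. Knockout replicates 2, 3 and 4 were low and the groups overlapped, and the log2 fold change was -0.26 ± 0.15 (edgeR adjusted p = 0.540).

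Ubtf encodes the factor UBF, which binds the ribosomal RNA gene promoter, and had the highest fold change of the 39 on the 9 libraries. Its knockout values were 200.4, 168, 199.9, 179.7 and 202 CPM. In wild-type replicates 1 to 4 it stood at 173, 198, 167 and 162 CPM, and in replicate 5 at 127 CPM. These ranges overlapped, with 3 knockout libraries above each wild-type one, and the log2 fold change of 0.14 ± 0.09 was not called (edgeR adjusted p = 0.594). Polr1a, the largest subunit, ran from 41.8 to 56.4 CPM in the knockout and from 50.8 to 56.5 CPM in wild-type replicates 1 to 4. Its log2 fold change was -0.12 ± 0.10 (edgeR adjusted p = 0.688). Polr1c, a subunit shared with RNA polymerase III, had the largest p of the group (0.07 ± 0.12). With wild-type replicate 5 included, the log2 fold changes were -0.12 ± 0.23 for Polr1b, 0.20 ± 0.14 for Ubtf, -0.08 ± 0.13 for Polr1a and 0.16 ± 0.16 for Polr1c.

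The genes of the box C/D proteins were the role group with the lowest median on the 9 libraries. All 4 had a negative log2 fold change there. All 4 were lower at an unadjusted p under 0.05 (5.85% of all genes), and the groups did not overlap for 3 (3.44%). Their median was -0.33. The 4 genes summed to 304 to 413 CPM in the knockout libraries and to 427 to 464 CPM in wild-type replicates 1 to 4. On all 10 libraries all 4 values were negative with a median of -0.19. There 1 gene was lower at an unadjusted p under 0.05 (4.44% of all genes) and 0 did not overlap (1.18%). The sum in wild-type replicate 5 was 175 CPM, below every other library.

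Rrp9 encodes the U3-specific protein of the small nucleolar particle that guides the first cuts of the precursor. Its values in the knockout were 22.3, 20.04, 17.5, 20.8 and 18.6 CPM. Those in the wild type were 27.0, 24.5, 25.4, 24.6 and 22.3 CPM. Here wild-type replicate 5 was level with the highest knockout library rather than far below it, and the fold change moved little between the fits. It was -0.32 ± 0.12 on 10 libraries and -0.34 ± 0.10 on 9, with edgeR adjusted p of 0.669 and 0.317. On the GRCm38 annotation Rrp9 overlaps Parp3 on the opposite strand, and the labels and processing notes give no strand setting for the counting.

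Nop58 is a core protein of every box C/D particle. It stood at 167, 123, 139, 136 and 148 CPM in the knockout libraries. Wild-type replicates 1 to 4 stood at 177, 191, 171 and 179 CPM and replicate 5 at 50.3 CPM. Every knockout library was below each of the first 4 wild-type libraries and above the fifth. The log2 fold change was -0.31 ± 0.10 on 9 libraries (edgeR adjusted p = 0.317) and -0.11 ± 0.31 on 10 (adjusted p = 0.920).

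Fbl encodes fibrillarin, the methyltransferase of these particles. Its knockout values were 81.2, 78.2, 65.7, 73.0 and 85.1 CPM, and its wild-type values were 91.8, 89.3, 94.9, 107 and 35.6 CPM. As for Nop58, the fifth wild-type library was the only one below the knockout range. Fbl had a log2 fold change of -0.30 ± 0.10 on 9 libraries (edgeR adjusted p = 0.330). Nop56, the partner of Nop58, had the largest p of the group and a log2 fold change of -0.40 ± 0.16. Its knockout libraries ran from 81.9 to 142 CPM and overlapped wild-type replicates 1 to 4 (131 to 159 CPM) through knockout replicate 1. On 10 libraries Fbl had -0.13 ± 0.25 and Nop56 -0.25 ± 0.24.

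**Figure D2:**
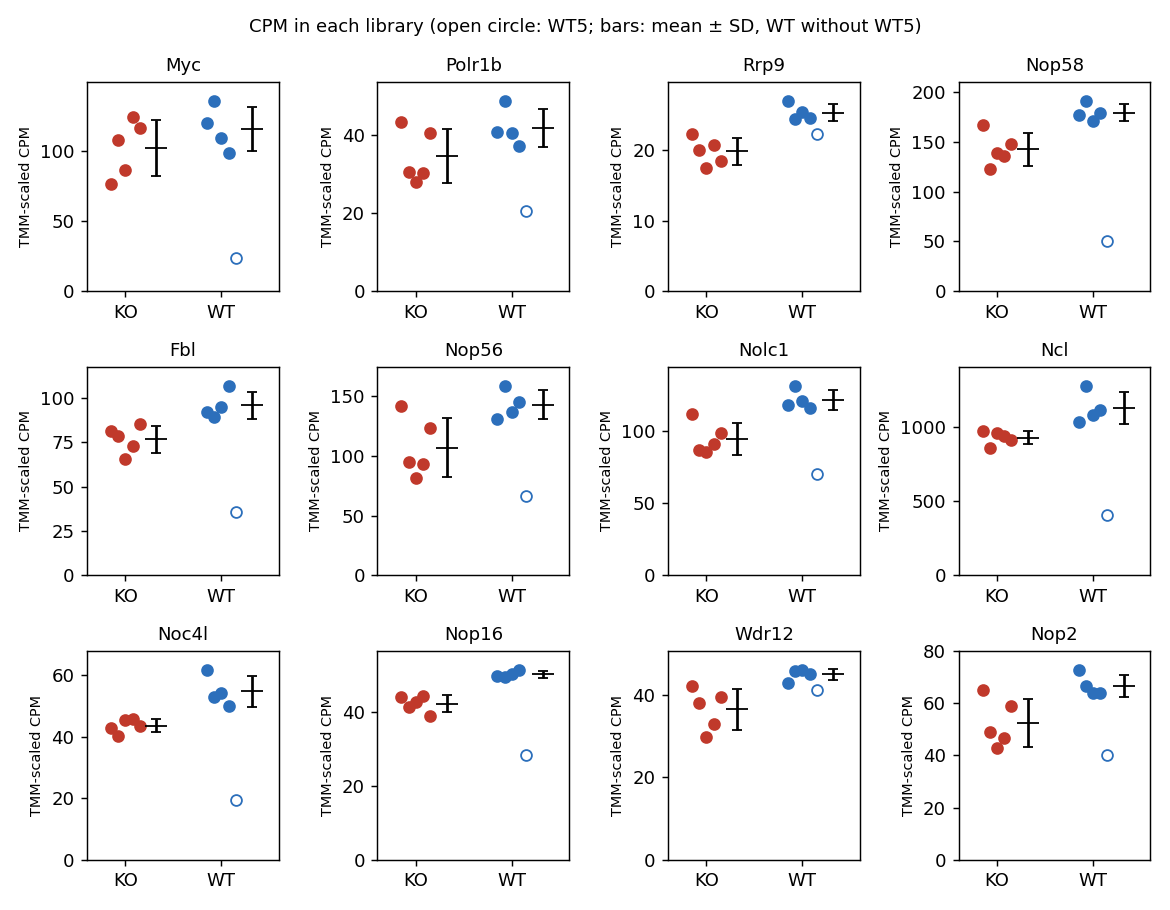
CPM in each knockout and wild-type library, 1 point per library, for 12 of the 39 members. All 12 have a negative log2 fold change on the 9 libraries, and the 6 members with a positive one are not drawn. The y axis of every panel starts at 0, with wild-type replicate 5 as an open circle and bars for mean ± SD (wild type without replicate 5). For Rrp9, Nop58, Fbl, Nolc1, Ncl, Noc4l, Nop16 and Wdr12 all 5 knockout points lie below the points of wild-type replicates 1 to 4. These are the only 8 of the 39 members with that pattern.

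The box H/ACA proteins had 4 of 4 negative log2 fold changes on the 9 libraries and a median of -0.23. At an unadjusted p under 0.05, 1 was lower, against 5.85% of all genes. On 10 libraries 3 of the 4 were negative, the median was -0.19 and 0 had an unadjusted p under 0.05. Dkc1 encodes dyskerin, the pseudouridine synthase, which also belongs to telomerase. It stood at 79.1, 73.5, 55.3, 70.6 and 82.5 CPM in the knockout and at 73.0, 112, 103 and 104 CPM in wild-type replicates 1 to 4, with 55.7 CPM in replicate 5. Wild-type replicate 1 lay among the knockout libraries, so the groups overlapped. On the 9 libraries its log2 fold change was the lowest of the 39 (-0.42 ± 0.15, edgeR adjusted p = 0.357).

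Gar1 and Nop10 are small subunits of the same particle. Gar1 stood at 37.6, 30.2, 25.5, 29.8 and 33.0 CPM in the knockout and at 36.2, 39.98, 37.9, 36.3 and 16.5 CPM in the wild type. Knockout replicate 1 reached the wild-type range, and the log2 fold change on 9 libraries was -0.25 ± 0.12 (edgeR adjusted p = 0.448). Nop10 and Rrp12 were the 2 members with their highest value in wild-type replicate 5, for Nop10 69.1 CPM. In the other wild-type libraries it stood at 49.0, 57.8, 64.5 and 57.3 CPM and in the knockout at 56.6, 56.9, 39.1, 36.8 and 53.9 CPM. Knockout replicates 3 and 4 were low and the other 3 lay within the wild-type range (-0.21 ± 0.16). Nhp2, the fourth subunit, showed the least difference (-0.01 ± 0.14, with a 95% interval of -0.33 to 0.31). The 10-library values were -0.31 ± 0.20 for Dkc1, -0.10 ± 0.23 for Gar1, -0.29 ± 0.16 for Nop10 and 0.17 ± 0.27 for Nhp2, which thus changed sign.

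Among the 6 general nucleolar proteins, 5 had a negative log2 fold change on the 9 libraries. At an unadjusted p under 0.05, 3 were lower (5.85% of all genes), and 2 did not overlap between the groups (3.44%). Their median was -0.27. On 10 libraries 5 were again negative, with a median of -0.12, but 0 had an unadjusted p under 0.05 and 0 did not overlap. Nolc1, a phosphoprotein chaperone of small nucleolar particles, stood at 111, 86.2, 84.9, 90.7 and 98.2 CPM in the knockout and at 118, 131, 120.4 and 115 CPM in wild-type replicates 1 to 4. Replicate 5 gave 69.9 CPM, below all other libraries. Nolc1 had a log2 fold change on 9 libraries of -0.34 ± 0.10 (edgeR adjusted p = 0.296), the lowest adjusted p of the set together with Noc4l.

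Ncl encodes nucleolin, an abundant RNA-binding protein of the nucleolus. It stood at 972, 862, 963, 939 and 916 CPM in the knockout libraries. The wild-type values were 1039, 1282, 1084, 1119 and 406 CPM. The knockout libraries were close together, all below the first 4 wild-type libraries. With all 10 libraries the log2 fold change was -0.08 ± 0.27, and without wild-type replicate 5 it was -0.26 ± 0.09 (edgeR adjusted p = 0.930 and 0.330). Exons of Ncl, Nop56, Nop58 and Gnl3 overlap small RNA genes on the same strand in the GRCm38 annotation, which counting could have split.

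Ddx21, an RNA helicase of RNA polymerase I transcription and processing, had knockout values of 109, 82.8, 103, 118 and 96.4 CPM. Its wild-type values were 127, 139, 115, 119 and 82.9 CPM. Only knockout replicate 4 entered the range of wild-type replicates 1 to 4, and the log2 fold change on 9 libraries was -0.28 ± 0.11 (edgeR adjusted p = 0.388). Npm1, nucleophosmin, ran from 849 to 1308 CPM in the knockout and from 1070.3 to 1434 CPM in wild-type replicates 1 to 4. Mybbp1a, a nucleolar Myb-binding protein, had the largest p of the group (0.02 ± 0.17). The 10-library values were -0.23 ± 0.17 for Nolc1, -0.20 ± 0.16 for Ddx21, -0.04 ± 0.33 for Npm1 and 0.13 ± 0.22 for Mybbp1a.

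The small-subunit group comprised proteins of the processome, which assembles on the precursor, and factors of late 40S maturation. On the 9 libraries 8 of the 9 had a negative log2 fold change, with a median of -0.20. At an unadjusted p under 0.05, 3 were lower (5.85% of all genes), and 1 did not overlap between the groups (3.44%). On 10 libraries 7 were negative, 1 (Rrp12) was lower at an unadjusted p under 0.05 (4.44% of all genes), 0 did not overlap and the median was -0.11. The gene without overlap was Noc4l, which takes part in 40S assembly. Its knockout values were 42.8, 40.4, 45.5, 45.6 and 43.6 CPM, and its wild-type values were 61.7, 52.8, 54.3, 50.035 and 19.4 CPM. The knockout libraries differed little from each other and lay between the first 4 wild-type libraries and the fifth. The log2 fold change was -0.31 ± 0.09 on 9 libraries (edgeR adjusted p = 0.296) and -0.13 ± 0.26 on 10 (adjusted p = 0.882).

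Wdr75 and Utp20 are processome proteins. Wdr75 stood at 54.6, 42.0, 45.4, 45.8 and 47.8 CPM in the knockout and at 59.3, 62.4, 52.1, 54.9 and 35.7 CPM in the wild type. Utp20, whose motif-bearing stretch is shown above, stood at 41.9, 32.4, 35.4, 38.4 and 39.8 CPM against 48.9, 46.2, 39.96, 44.0 and 20.4 CPM. In both genes only knockout replicate 1 overlapped wild-type replicates 1 to 4. Their log2 fold changes on 9 libraries were -0.26 ± 0.10 and -0.23 ± 0.10 (edgeR adjusted p = 0.365 and 0.423), and on 10 libraries -0.17 ± 0.16 and -0.09 ± 0.22. Tsr1, a factor of late 40S maturation, had the largest p of the group (0.04 ± 0.32, and 0.15 ± 0.33 on 10 libraries) and the widest spread. Its knockout values were 38.1, 21.4, 19.7, 13.2 and 41.5 CPM, so that 2 libraries lay above and 3 below all of wild-type replicates 1 to 4 (22.4 to 31.7 CPM).

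Rrp12, which acts in 40S export, was one of the 3 members with an unadjusted p under 0.05 on all 10 libraries. Wild-type replicate 5 was its highest library at 37.5 CPM, against 19.9 to 25.5 CPM in wild-type replicates 1 to 4 and 16.1 to 22.5 CPM in the knockout. Its log2 fold change was -0.48 ± 0.20 with that library and -0.29 ± 0.13 without it, where the unadjusted p was 0.0601.

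Of the 10 genes of large-subunit assembly, 8 had a negative log2 fold change on the 9 libraries, with a median of -0.21. At an unadjusted p under 0.05, 5 were lower (5.85% of all genes), and 2 did not overlap between the groups (3.44%). On 10 libraries 7 were negative, 1 (Wdr12) was lower at an unadjusted p under 0.05 (4.44% of all genes), 0 did not overlap and the median was -0.09. Nop16, a protein of early 60S particles, had knockout values of 44.0, 41.2, 42.6, 44.4 and 38.99 CPM. Wild-type replicates 1 to 4 were nearly equal, at 49.6, 49.4, 50.4 and 51.4 CPM, and replicate 5 stood at 28.4 CPM. All knockout libraries lay below the first 4 wild-type libraries and above the fifth. Nop16 had a log2 fold change on 9 libraries of -0.23 ± 0.08 (edgeR adjusted p = 0.329), and on 10 of -0.12 ± 0.17.

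Nop2 is a methyltransferase of the large-subunit RNA. Its values were 65.0, 48.9, 42.9, 46.9 and 59.1 CPM in the knockout libraries and 72.9, 66.5, 63.9, 63.8 and 40.2 CPM in the wild type. Knockout replicate 1 alone entered the range of wild-type replicates 1 to 4 (-0.33 ± 0.13, edgeR adjusted p = 0.379; -0.23 ± 0.18 on 10 libraries). Wdr12 forms a complex with Pes1 and Bop1 that is needed for 60S maturation. It stood at 42.1, 37.9, 29.8, 32.9 and 39.5 CPM in the knockout and at 42.9, 45.8, 46.1, 45.1 and 41.2 CPM in the wild type. Wild-type replicate 5 was close to the others and overlapped the knockout through replicate 1. The log2 fold change was -0.28 ± 0.12 on 10 libraries and -0.29 ± 0.11 on 9 (edgeR adjusted p = 0.669 and 0.384).

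Of the partners of Wdr12, Bop1 had a log2 fold change of -0.13 ± 0.11 and Pes1 of -0.02 ± 0.11 on the 9 libraries, and -0.04 ± 0.15 and 0.11 ± 0.20 on 10, so that the sign for Pes1 turned. Both overlapped between the groups, and the differences between the 3 genes were not tested. Brix1, another 60S assembly factor, had the largest p of the group and a log2 fold change of 0.00 ± 0.10, with a 95% interval of -0.22 to 0.22 (0.11 ± 0.17 on 10 libraries).

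**Figure D3:**
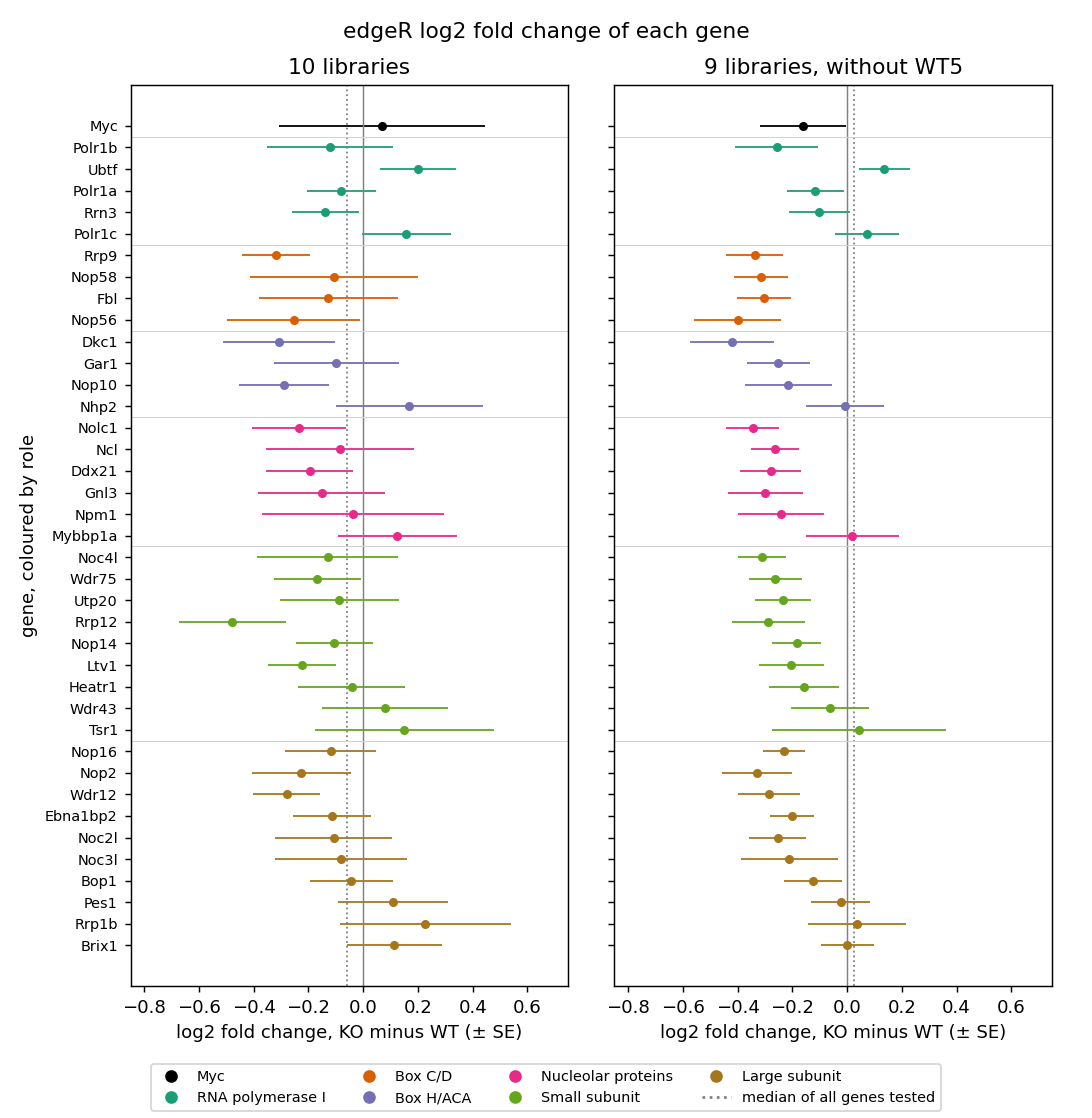
Log2 fold change of each member (knockout over wild type) on 10 and on 9 libraries, grouped by role, with bars of 1 SE on each side and a dotted line at the median of all genes. On the 9 libraries 33 points lie below 0, all 4 box C/D genes among them, and the bars are shorter than on 10 libraries for most genes, Nop58 (0.10 against 0.31) being an example.

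Other genes of ribosome biogenesis, were listed apart from the 39. Of 84 such genes, 62 had a negative log2 fold change on the 9 libraries (46.8% of all genes), with a median of -0.10. At an unadjusted p under 0.05, 17 (20.2%) were lower and 0 higher, against 5.85% and 5.74% of all genes. This was not seen with wild-type replicate 5 included: 47 of the 84 (56%) were then negative, against 56.2% of all genes, with a median of -0.02 and 3 (3.57%) lower at an unadjusted p under 0.05. The 10 further genes of RNA polymerase I transcription had 7 negative values (6 on 10 libraries) and 0 with an unadjusted p under 0.05 in either case. Taf1d, a subunit of the promoter selectivity factor, had a log2 fold change of 0.25 ± 0.12, Taf1a of the same factor one of 0.16 ± 0.14 and Polr1g, a polymerase subunit, one of -0.14 ± 0.11. On 10 libraries these were 0.46 ± 0.33, 0.27 ± 0.20 and -0.03 ± 0.18.

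The 36 further small-subunit genes had 30 negative values (46.8% of all genes), with a median of -0.07. At an unadjusted p under 0.05, 7 were lower (5.85% of all genes). With all 10 libraries 20 (55.6%) were negative, against 56.2% of all genes, with a median of -0.03. There 1 (2.78%) was lower at an unadjusted p under 0.05, against 4.44% of all genes. Rcl1, a processome protein, stood at 32.6, 32.7, 28.7, 33.4 and 31.4 CPM in the knockout and at 41.3, 37.6, 50.8, 40.9 and 21.4 CPM in the wild type. It did not overlap on the 9 libraries (-0.41 ± 0.11, edgeR adjusted p = 0.288). Emg1, a methyltransferase, and Utp11, a processome protein, did not overlap either (-0.25 ± 0.08 and -0.25 ± 0.09). Among 38 further large-subunit genes, 25 had negative values (46.8% of all genes), with a median of -0.12. At an unadjusted p under 0.05, 10 were lower (5.85% of all genes). With all 10 libraries 21 (55.3%) were negative, against 56.2% of all genes, with a median of -0.01. There 2 (5.26%) were lower at an unadjusted p under 0.05, against 4.44% of all genes. Rrp15 had 36.8, 29.7, 26.7, 33.0 and 29.4 CPM in the knockout and 46.6, 42.9, 41.5, 44.2 and 25.0 CPM in the wild type (-0.48 ± 0.11, edgeR adjusted p = 0.280). Rpf2, which helps bring the 5S particle into the subunit, and Mrto4, a placeholder for stalk proteins, did not overlap on the 9 libraries either (-0.45 ± 0.11 and -0.31 ± 0.08). By edgeR none of the 84 was called. In DESeq2 only the named genes were read, which were picked for small p on the same 9 libraries. It called Rcl1, Emg1, Rrp15, Rpf2 and Mrto4 lower on the 9 libraries, where it called 2.46% of all genes in either direction. On all 10 libraries, where it called 54 genes, Rpf2 was among them (DESeq2 adjusted p = 0.0134). The 10-library values were -0.28 ± 0.20 for Rcl1, -0.21 ± 0.11 for Emg1, -0.28 ± 0.10 for Utp11, -0.36 ± 0.18 for Rrp15, -0.43 ± 0.12 for Rpf2 and -0.24 ± 0.12 for Mrto4.

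A further list held genes outside ribosome assembly that Myc is known to activate. Of these 20 genes, 19 had a negative log2 fold change on the 9 libraries (46.8% of all genes), with a median of -0.33 and 0 called by edgeR. At an unadjusted p under 0.05, 12 (60%) were lower, against 5.85% of all genes. For 8 every knockout library lay below wild-type replicates 1 to 4, against 3.44% of all genes. On all 10 libraries 18 were negative and the median was -0.34. There 5 were lower at an unadjusted p under 0.05 (4.44% of all genes) and 3 did not overlap (1.18%). Ran, the GTPase of nuclear transport, stood at 252, 231, 188, 194 and 243 CPM in the knockout and at 326, 339, 337, 343 and 213 CPM in the wild type (-0.59 ± 0.11 on 9 libraries, edgeR adjusted p = 0.193, and -0.49 ± 0.17 on 10). Pa2g4, a growth-regulated protein found in the nucleolus, stood at 199 to 225 CPM in the knockout and at 274 to 280.5 CPM in wild-type replicates 1 to 4 (-0.38 ± 0.07, adjusted p = 0.220 in edgeR, and -0.21 ± 0.23 on 10 libraries). Ung, a uracil DNA glycosylase, had 12.2 to 16.4 CPM in the knockout and 19.6 to 26.3 CPM in wild-type replicates 1 to 4. For Ung wild-type replicate 5 (19.0 CPM) also lay above every knockout library, and the log2 fold change was -0.64 ± 0.16 on 10 libraries and -0.68 ± 0.14 on 9 (edgeR adjusted p = 0.669 and 0.220). DESeq2 and limma-voom each called all 3 genes lower on the 9 libraries, where they called 463 and 142 of all genes. Both called Ung on all 10 libraries too (adjusted p = 0.00514 in DESeq2 and 0.036 in limma-voom). These 3 were picked for small p on the same 9 libraries, and the other genes of the list were not read in those tools. DNA replication genes such as Mcm4 are among these 20, so the list is not separate from the cell division values above.

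The 12 genes of the Myc network pair with Max or with its relative Mlx. They had 8 negative and 4 positive values on the 9 libraries and on all 10. Of all genes, 46.8% were negative on the 9 libraries and 56.2% on the 10. Mxd3 and Mxd4 encode partners of Max that act as repressors. Mxd3 was low everywhere, at 1.14 to 2.72 CPM in the knockout and 3.23 to 4.44 CPM in wild-type replicates 1 to 4 (-0.83 ± 0.27, edgeR adjusted p = 0.326). Mxd4 had the opposite sign, with 111, 188, 117, 171 and 159.9 CPM in the knockout against 75.0, 107, 134 and 119 CPM in wild-type replicates 1 to 4 (0.48 ± 0.21, edgeR adjusted p = 0.429), and the groups overlapped. Mlx had a log2 fold change of 0.19 ± 0.11. On 10 libraries the values were -0.59 ± 0.45 for Mxd3, 0.42 ± 0.20 for Mxd4 and 0.21 ± 0.12 for Mlx.

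**Figure D4:**
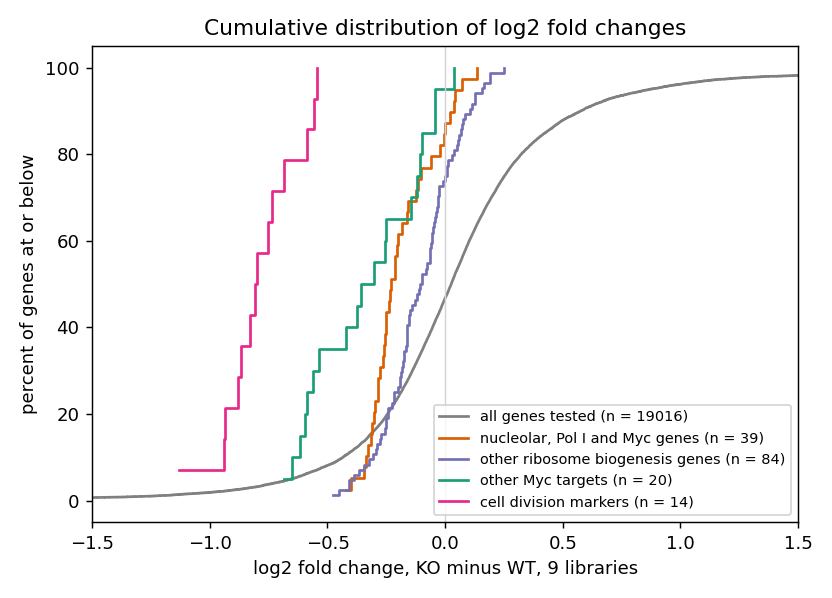
Cumulative share of genes by log2 fold change on the 9 libraries, for the 39 members, the 84 other ribosome biogenesis genes, the 20 other Myc targets, the 14 cell division markers and all 19016 genes tested; genes beyond the ends of the x axis are counted but not drawn. The medians are -0.23, -0.10, -0.33, -0.80 and 0.03 in that order.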

How the data were processed

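Whole-tumour poly(A) RNA was sequenced from 5 knockout and 5 wild-type libraries, with stranded library preparation per the labels' protocols. The authors deposited raw whole-number counts per gene, and 0 count columns lacked a sample. Mouse build GRCm39 and the tools STAR, featureCounts, FastQC and DESeq2 are named in the submitters' processing notes, without versions, annotation release or strand setting. With an unstated strand setting, reads of a gene and of an antisense neighbour may not have been told apart, and exons of 16 members overlap a gene on the opposite strand in the GRCm38 annotation (GENCODE).

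The 2 genotypes were compared by quasi-likelihood F-tests in edgeR 4.0.16 under R 4.3.3 (TMM scaling, filterByExpr, robust dispersions), fitted across all genes of the 10 or 9 libraries, with Benjamini-Hochberg adjustment and a threshold of 0.05. The SE is the size of the log2 fold change divided by the square root of F, and 95% intervals use the t quantile of edgeR's degrees of freedom. CPM levels are scaled over all 10 libraries. Depth was 25.7 to 43.3 M counts, and all 39 members passed the low-count filter. What limits the precision was not tested. The code was tested on simulated data. Coding lengths are those of the principal coding sequence in the GRCm38 annotation.

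Named are Myc, the 3 members with the smallest unadjusted p on the 9 libraries in each of 6 role groups, the member with the largest p there, and up to 3 genes with the smallest p of each further list. Npm1, Rrp12, Bop1, Pes1, Heatr1, Nop14, Ltv1 and Ebna1bp2 were added after their values were seen. Outside the rule, Rrn3 and Wdr43 are also named for a promoter motif and Gnl3 for an exon overlap. Noc2l, Noc3l and Rrp1b are named for a change of sign, and the marker Ccnb2 because edgeR called it. The members and lists, and the split into 10 and 9 libraries, were chosen with earlier results of these data known. Alternatives were RLE scaling, total counts, DESeq2 1.42.0, limma-voom (limma 3.58.1, libraries weighted by quality), omitting the low-count filter, at least 10 counts in every library, sums or a random block by leading number, and leaving out each library.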

Additional observations from a re-analysis of the deposited data

Results flagged for a closer look

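In groups of 5 libraries, a library was marked where its gap to the nearest other library was large against the range of the group (Dixon's ratio at the 95% level). Chance marks about 1 in 20 groups taken singly. The groups share the same libraries and include the sum of the members, so a single library can mark many. The count of marks therefore cannot be set against 1 in 20. Of 80 groups, 14 were marked, 12 of them for wild-type replicate 5 as the lowest library. Those were Nop58 (50.3 CPM), Fbl (35.6 CPM), Gar1 (16.5 CPM), Ncl (406 CPM), Nolc1 (69.9 CPM), Noc4l (19.4 CPM), Bop1 (36.6 CPM), Nop2 (40.2 CPM), Nop16 (28.4 CPM), Brix1 (51.2 CPM), Ebna1bp2 (58.4 CPM) and the sum of the 39 members (2414 CPM). The other 2 were knockout replicate 4 as the highest knockout library, for Ltv1 (55.6 CPM), a 40S assembly factor, and Ebna1bp2 (87.2 CPM), a 60S assembly factor.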

How the results depend on the processing

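On 10 libraries, the count of members lower at an unadjusted p under 0.05 was 0 with total counts, 13 with limma-voom, 1 without the low-count filter, 1 with sums per leading number and 0 with that number as a random block. All genes called numbered 54 in DESeq2 and 17 in limma-voom, and members called numbered 0 in both. With the sums, 17 members were lower and their median was 0.0446. Of the 39 members and the named further genes, signs changed with total counts (Polr1a 0.0299, Polr1g 0.0487, Npm1 0.00624, Heatr1 0.0343, Bop1 0.0481), which moved the median of all genes from -0.06 to 0.07, in limma-voom (Myc -0.13, Nhp2 -0.0263, Brix1 -0.024), with the sums (Polr1b 0.0446, Nop58 0.0791, Fbl 0.0621, Gar1 0.07, Ncl 0.0535, Noc4l 0.00828, Utp20 0.0514, Polr1g 0.0974, Npm1 0.184, Heatr1 0.0723, Noc2l 0.0259, Noc3l 0.116, Bop1 0.059) and with the block (Nop58 0.204, Fbl 0.0684, Ncl 0.201, Polr1g 0.045, Pa2g4 0.0185, Npm1 0.35, Heatr1 0.00997, Noc2l 0.0193, Noc3l 0.0101, Bop1 0.00306). On 9 libraries, all genes called numbered 1 with total counts, 463 in DESeq2, 142 in limma-voom, 0 with the sums and 0 with the block, against 2 in edgeR. DESeq2 called 4 members and limma-voom 0. Members lower at an unadjusted p under 0.05 numbered 4 with the sums and 9 with the block. Brix1 changed sign with RLE scaling (-0.00382), total counts (-0.0241), DESeq2 (-0.00374), limma-voom (-0.0208), no filter (-0.019), the sums (-0.00563) and the block (-0.00846), and Mybbp1a with total counts (-0.00584) and no filter (-2.75e-05). In limma-voom Heatr1 (0.00246), Wdr43 (0.0822) and Pes1 (0.0466) changed sign too. Rhbdd1 with the sums had a log2 ratio of -0.94 on 10 libraries (exact permutation p = 0.0571, the smallest that 4 against 3 can give) and -1.11 on 9 (p = 0.133, the smallest for 4 against 2). The cause of these differences was not tested.

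Leaving out each library of the 10 in turn gave 0 to 2 genes called and 26 to 33 members lower. It gave 0 to 16 members lower at an unadjusted p under 0.05 and a median of -0.23 to -0.03. The median of all genes ran from -0.0697 to 0.0258. The 16 and the -0.23 came without wild-type replicate 5, where 5.85% of all genes were lower at that p. With no library left out, 56.2% of all genes were negative and 4.44% lower at that p. From the 9 libraries, leaving out each in turn gave 0 to 1 genes called and 30 to 37 members lower. It gave 9 to 17 members lower at an unadjusted p under 0.05 and a median of -0.27 to -0.19. The median of all genes ran from 0.0124 to 0.0322. With all 9 kept, 46.8% of all genes were negative and 5.85% lower at that p. For the fit that gave the 17, the share of all genes was not computed. Signs changed on 10 libraries for Myc (-0.16 to 0.22), Ncl (-0.26 to 0.0282), Nhp2 (-0.0068 to 0.28), Polr1g (-0.14 to 0.0604), Tsr1 (-0.061 to 0.32), Heatr1 (-0.16 to 0.044), Noc3l (-0.21 to 0.0168), Npm1 (-0.24 to 0.0849), Pes1 (-0.0235 to 0.20) and Wdr43 (-0.0619 to 0.185), and on 9 for Brix1 (-0.0348 to 0.0612), Mybbp1a (-0.0634 to 0.11), Nhp2 (-0.10 to 0.0719), Pes1 (-0.0681 to 0.0368), Rrp1b (-0.0552 to 0.142), Wdr43 (-0.136 to 0.0227) and Tsr1 (-0.17 to 0.22). In edgeR 0 members were called in any of these. No paired analysis was possible because the labels give the groups no shared replicate numbers. Whether depth or the number of libraries limits the precision was not tested.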
